A study of Homo sapiens with 3 samples.

Results

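Hypoxia sensing and response was followed through 10 genes in the ATAC-seq library of hCMEC/D3, an immortalized line derived from human brain microvascular endothelium. The members were chosen by symbol and all 10 were found among the 20037 protein-coding genes of the RefSeq gene table (GRCh38.p14): HIF1A, EPAS1, ARNT, EGLN1, EGLN3, VHL, CA9, ADM, NDRG1 and BNIP3. The cells had been cultured until confluent on collagen-coated plates, and the labels name no treatment and no oxygen level. The series holds 3 libraries of this one line, 2 of RNA and 1 of ATAC, with no second cell type or condition. The values below come from ATAC replicate 2 alone, so there is no replicate error and no test; each member is set against other genes of the same library as a description.

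Cells sense oxygen through the hypoxia-inducible factors (HIFs), pairs of an oxygen-labile alpha subunit with the stable partner ARNT. When oxygen is plentiful, prolyl hydroxylases of the EGLN family mark the alpha subunit, and the VHL ubiquitin ligase complex has it degraded. When oxygen falls, the alpha subunit accumulates and the dimer binds hypoxia response elements, whose core reads ACGTG or GCGTG, at genes for pH control, vessel tone, metabolism and mitophagy. Endothelial cells are known for strong use of EPAS1 (HIF-2 alpha) beside HIF1A.

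ATAC-seq marks open chromatin by the cuts of the Tn5 transposase. The peak list held 106415 broad peaks, called by the authors from 22188172 tags. For such broad peaks the pileup is a mean number of extended tags over the positions of the peak. It is not the greatest height, so a wide peak can have a lower pileup than its tallest part. Fold is the authors' ratio of pileup to a local background taken from the same library over a region of 10000 bp. Peaks near one another thus count in each other's background. The lowest pileup in the list was 8.0 tags, but calling depended on q against the local background and not on a fixed pileup. A gene without a peak thus only lacked a signal that was called at this depth. As a check of the cell label, 8 of 8 endothelial markers had a peak at a gene end, from 10.98 tags at ERG to 62.6 at CDH5, but so did 11 of 12 markers of other cell types (8.5 to 93.6 tags, AQP4 having none) and 72.8% of all protein-coding genes, so end peaks did not tell the cell types apart. More peaks than the median of genes of similar length were found for 7 of 8 endothelial markers, for 9 of 12 of the others and for 42.6% of all protein-coding genes.

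Peaks were counted in each gene and 10 kb on either side, and were placed at a gene end (within 1 kb of either end), inside the gene or in the flank. All 10 members had a peak at a gene end, compared with 72.8% of protein-coding genes. Of the 8 members with a start site in the RefSeq promoter table, all 8 had a peak within 1 kb of it, compared with 74.0% of the genes in that table. In each of these 8 the peak lay over the start base itself, as for 68.7% of the genes in that table. VHL and NDRG1 have no entry in the promoter table used here.

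The 10 members held 70 peaks, 13 at gene ends, 35 inside and 22 in flanks. The end and flank shares, 18.6% and 31.4%, compared with 19.7% and 26.4% over all protein-coding genes, where a peak near several genes counts for each. Of the 70 peaks, 16 also lay at an end of another annotated gene; the same share over all protein-coding genes is not given here. The peaks at members' ends were the higher ones, at 57.2 tags by the median, while those inside had 27.1 and those in flanks 36.5. The same order held over all protein-coding genes, at 41.4, 20.5 and 27.1 tags. By fold the members lay lower at each position. Their medians were 4.12 at ends, 3.4 inside and 3.32 in flanks, compared with 4.72, 4.39 and 4.25 over all protein-coding genes. Peaks inside members were between 200 and 1773 bp wide.

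**Figure D1:**
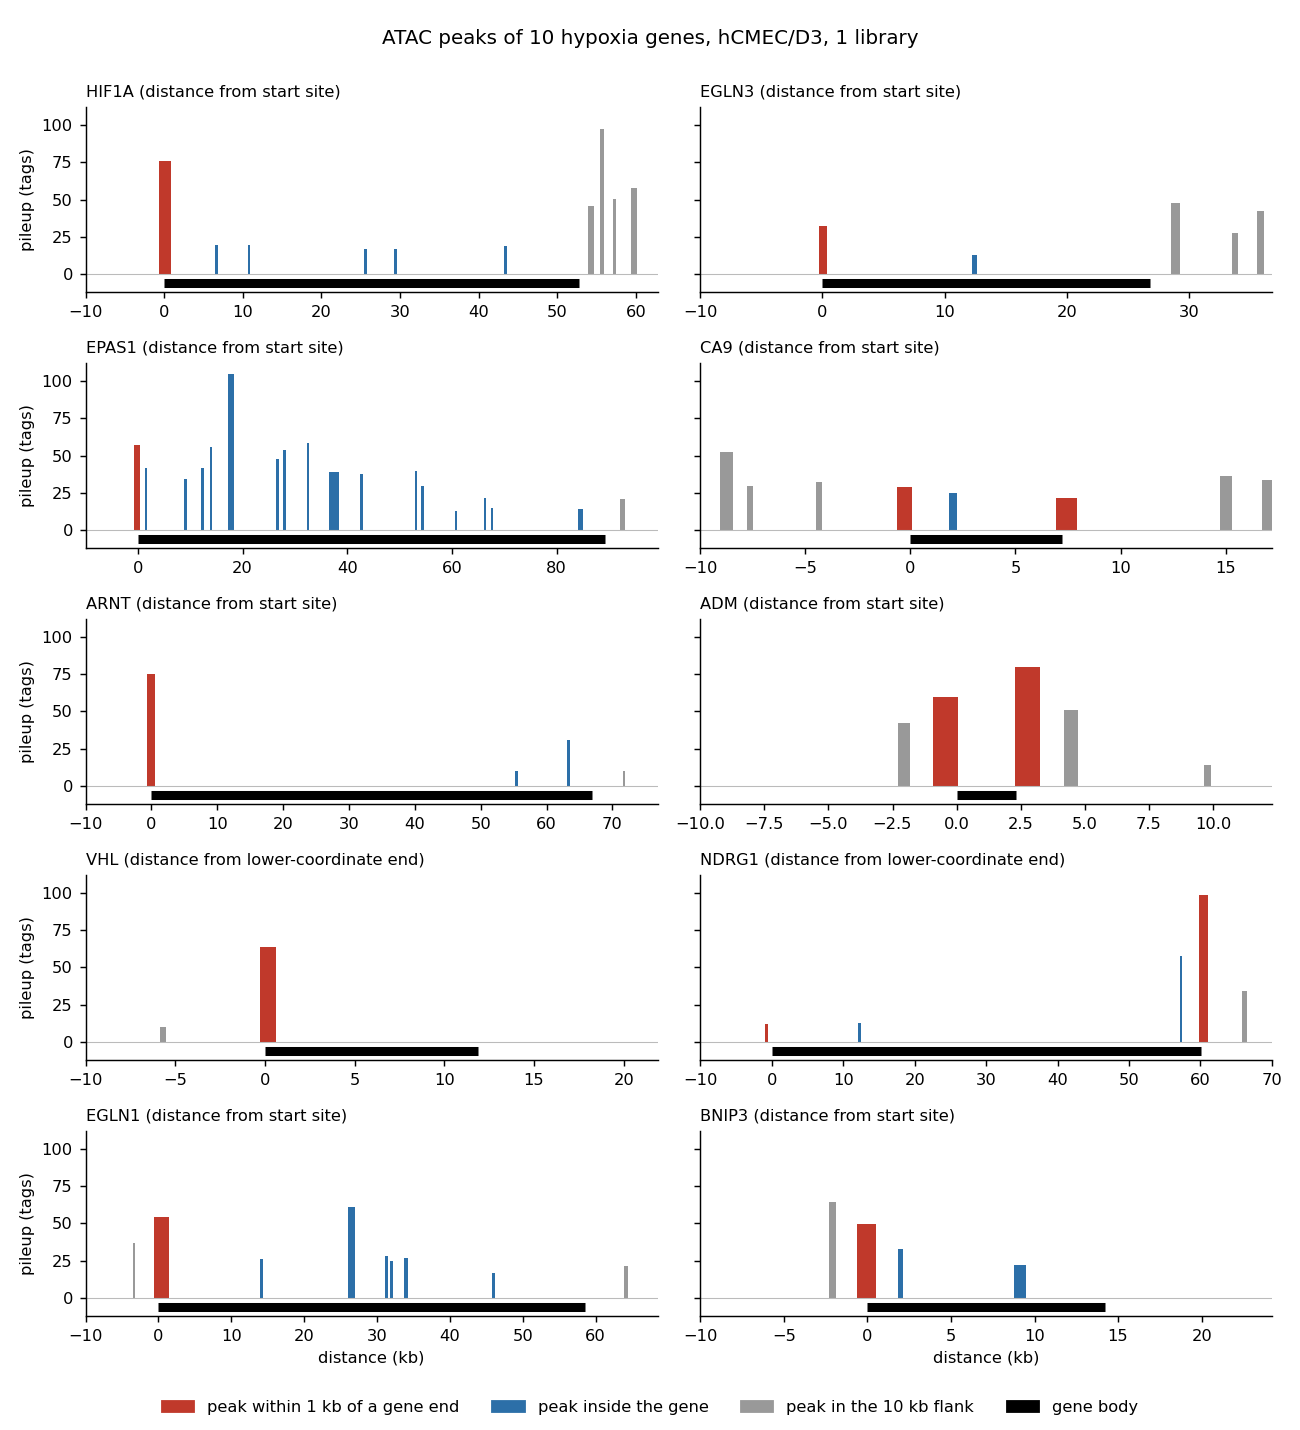
Peaks of the 10 members in 1 ATAC library; the x axis is the distance in kb from the start site (for VHL and NDRG1, from the end at the lower coordinate), bar height is pileup in tags, bar width is peak width (very narrow peaks are drawn at a minimum width) the black line is the gene, and red, blue and grey mark peaks at an end, inside and in the flank. EPAS1 carries 16 peaks inside the gene, HIF1A has its higher peaks at the start and beyond the far end, and ARNT and NDRG1 have long stretches without a peak.

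Each member was ranked among the 200 protein-coding genes nearest to it in length, 100 shorter and 100 longer, by percentile with ties split evenly. More peaks than the median of these genes were found for 7 of 10 members, compared with 42.6% of all protein-coding genes by the same rule. For 4 members, EPAS1, CA9, ADM and HIF1A, the count stood at or above percentile 90, as for 9.91% of all protein-coding genes. A highest pileup above the median was found for 9 of 10 members (49.8% of all genes), the exception being EGLN3, and more peak-covered bases for 8 of 10 (49.8%). The exception in pileup changed with some settings. With a flank of 5 kb it was CA9, at percentile 47.5, and limited to peaks of at least 4-fold it was ADM, at percentile 36.0. In number of peaks among similar genes that had an end peak, as every member had, HIF1A stood at percentile 89.7 and ADM at 89.5. This left EPAS1 and CA9 at or above percentile 90, under an alternative added after the values were seen. Limited to peaks of at least 4-fold, the count above the median fell to 4 members and the count at percentile 90 to 2, CA9 and EGLN1. With −log10 q of at least 5 the members at or above percentile 90 were EPAS1, EGLN1, CA9 and ADM. With a pileup of at least 20 tags they were EPAS1, EGLN1 and CA9. Without peaks at ends of other protein-coding genes, an alternative added after the values were seen, they were HIF1A, EPAS1 and ADM. Shares of all protein-coding genes are not given under any of these settings, so the counts cannot be set against them. Peaks near one another count in each other's background, and how far this bears on the counts under the fold filter was not tested.

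**Figure D2:**
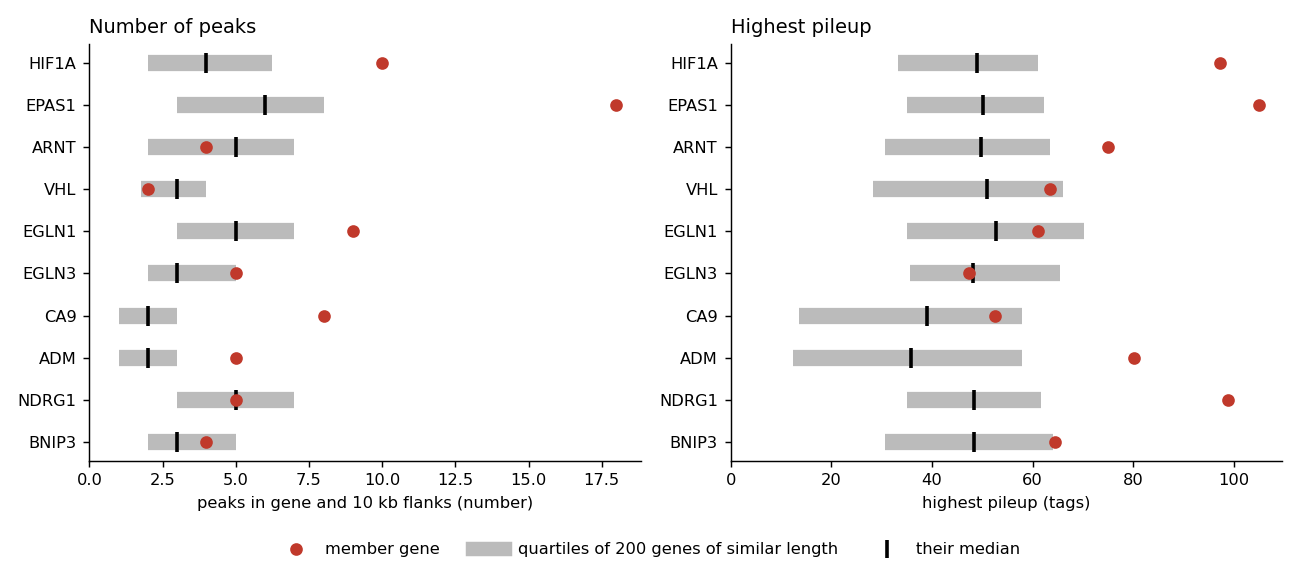
Number of peaks (left) and highest pileup in tags (right) of each member (red points), with the quartiles (grey bars) and median (black ticks) of the 200 protein-coding genes nearest in length. EPAS1 with 18 peaks and CA9 with 8 lie above every one of their 200 genes in number, while ARNT and VHL lie below their medians.

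The HIF subunits differed widely among themselves. EPAS1 (chr2:46297407-46386697, plus strand, 89.3 kb) encodes the HIF-2 alpha subunit and had 18 peaks, against a median of 6 (quartiles 3 and 8) for genes of 87.0 to 91.3 kb, none of which had as many. Its peaks covered 11372 bp, again more than in any of the 200 genes, whose median was 3277 bp. One peak covered the start (chr2:46296644-46297826, 57.2 tags, 3.37-fold), 16 lay inside the gene and 1 in the flank beyond its far end. The highest was not at the start but 17.3 kb into the gene, at chr2:46314667-46315837, with 105.0 tags, 1171 bp and 5.07-fold. That pileup was the highest among all members and above all 200 genes of similar length, whose median was 50.2 tags.

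Pileup along EPAS1 was uneven. The 12 peaks inside the gene within 54.0 kb of the start had 29.5 to 105.0 tags, and the 4 farther in had 12.9 to 21.4 tags. The widest peak of the gene, 1773 bp, lay 36.6 kb in and had 39.1 tags. The 12 peaks nearer the start stood on local backgrounds of 7.26 to 22.8 tags, compared with a median of 3.1 for peaks inside protein-coding genes. Of the 18 peaks 3 reached 4-fold, which put EPAS1 at percentile 35.8 of similar genes under that filter. A limit of 5 on −log10 q left it 11 peaks, at percentile 97.0.

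HIF1A (chr14:61695513-61748258, plus strand, 52.7 kb), which encodes HIF-1 alpha, had 10 peaks against a median of 4, and 12 of its 200 similar genes had more. Its start peak (chr14:61694911-61696368) had 76.1 tags, 1458 bp and 4.96-fold, and also lay at an end of the antisense gene HIF1A-AS1. A second start in the promoter table, with few G and C bases around it (31.7%), had no peak over it. The 5 peaks inside the gene were weak and alike, with 16.6 to 19.8 tags, 2.04 to 2.63-fold and −log10 q of 1.44 to 2.59. The 4 peaks beyond the far end were higher, from 45.7 to 97.2 tags, and the highest (chr14:61750915-61751459) lay at an end of HIF1A-AS3, a noncoding gene. HIF1A thus differed from EPAS1 in where its signal lay: its 5 peaks of −log10 q of at least 5 (percentile 74.0) were the start peak and the 4 in the flank, and 2 of its peaks reached 4-fold (percentile 38.0).

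ARNT (chr1:150809713-150876599, minus strand, 66.9 kb), the shared partner subunit, had 4 peaks, below the median of 5 for its length, at percentile 42.5. Its start peak (chr1:150876119-150877236) was high, with 75.0 tags and 6.82-fold. After it came 54.8 kb without a peak, the longest stretch between neighbouring peaks of any member. A peak of 31.2 tags lay 63.2 kb from the start at chr1:150813080-150813438, near the small nuclear RNA pseudogene RNU6-1309P. Its 9.54-fold was the highest fold of the 70 peaks, but over a background of 2.37 tags, the floor set by the peak calling. The other 2 peaks had 9.90 and 10.1 tags.

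Among the sensors, EGLN1 (chr1:231363756-231422287, minus strand, 58.5 kb) encodes PHD2, the main HIF prolyl hydroxylase. It had 9 peaks against a median of 5, at percentile 86.2. Its start peak (chr1:231420863-231422915) was the widest of all members at 2053 bp, wider than 96.4% of the peaks of the 10886 protein-coding genes with a peak over a start, ties split. At 54.5 tags and 3.15-fold it was not the highest peak of the gene; a peak 26.0 kb in (chr1:231395304-231396309) had 61.1 tags and 6.37-fold. The other 5 peaks inside had 16.6 to 28.2 tags. EGLN1 kept 6 peaks of at least 4-fold, at percentile 90.8, more than any other member.

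EGLN3 (chr14:33924227-33951074, minus strand, 26.8 kb), which encodes PHD3, a hydroxylase known to be induced by HIF itself, showed another pattern. Its start peak (chr14:33950716-33951325) was low and narrow, with 32.5 tags and 610 bp, but had 8.81-fold, at percentile 98.0 of start peaks, over a local background of 2.80 tags (percentile 6.7). Its highest peak lay beyond the far end, 28.5 kb from the start (chr14:33921838-33922566), with 47.4 tags and 8.14-fold. Another 2 downstream peaks had 27.9 and 42.2 tags. With 5 peaks against a median of 3 EGLN3 stood at percentile 71.2, and its highest pileup at percentile 47.5.

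VHL (chr3:10141778-10153667, 11.9 kb), the substrate-binding subunit of the ubiquitin ligase, had the fewest peaks, 2 against a median of 3, at percentile 32.2. The peak at its lower-coordinate end (chr3:10141529-10142407) had 63.5 tags, 879 bp and 7.43-fold, and also lay at an end of the uncharacterized gene LOC124906359. The other, in the flank, had 9.74 tags, near the lowest in the list. No peak was called inside the gene away from the end.

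Among the HIF targets, CA9 (chr9:35673928-35681159, plus strand, 7.2 kb) encodes carbonic anhydrase IX, a membrane enzyme of pH control that is widely used as a marker of hypoxia. It had 8 peaks against a median of 2, more than any of its 200 similar genes. Its start peak (chr9:35673287-35674016) was the lowest of the 8 start peaks, with 29.1 tags, 3.73-fold and percentile 17.3. One more peak lay inside (24.8 tags) and 1 at the far end (21.2 tags). Of the 8 peaks, 5 lay at an end of the neighbouring protein-coding genes ARHGEF39, a guanine nucleotide exchange factor gene, or TPM2, a tropomyosin gene, including the highest, of 52.5 tags. When peaks at ends of other protein-coding genes were left out for CA9 and for its similar genes, an alternative added after the values were seen, CA9 had 3 peaks against a median of 1, at percentile 87.5.

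ADM (chr11:10305073-10307397, plus strand, 2.3 kb) encodes adrenomedullin, a vasodilator peptide that endothelial cells secrete. It had 5 peaks against a median of 2, at percentile 93.5. The start peak (chr11:10304144-10305127) had 59.8 tags and also lay at an end of SBF2. The peak over the far end (chr11:10307335-10308331) had 80.0 tags and also lay at an end of CAND1.11, which is not annotated as protein-coding. Flank peaks 1.8 kb upstream of the start and 4.2 kb downstream of it had 42.0 and 50.8 tags, the latter also at an end of CAND1.11. These 4 peaks stood on local backgrounds of 22.2 to 28.6 tags, and their folds were 1.79 to 2.83. Neighbouring peaks count in these backgrounds, and how far this lowered the folds was not tested. The backgrounds at both ends of ADM, 28.6 and 27.6 tags, were the highest of the 70 peaks. At the start the fold of 2.06 stood at percentile 0.2 of start peaks while the pileup stood at percentile 71.7. The 1 peak of at least 4-fold was a low one of 14.4 tags, 9.7 kb from the start.

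NDRG1 (chr8:133237175-133297252, 60.1 kb) is a stress-responsive gene of the N-myc downstream regulated family. Its peak at the higher-coordinate end (chr8:133297029-133298206) had 98.8 tags and 4.93-fold, at percentile 98.7 of end peaks and the highest end pileup of the members. A narrow peak of 57.3 tags lay inside the gene near that end. The remaining 3 peaks had 12.4, 12.9 and 34.0 tags, and 44.6 kb of the gene held none. Its count of 5 equalled the median of similar genes.

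BNIP3 (chr10:131967684-131981923, minus strand, 14.2 kb), which encodes a mitochondrial receptor of mitophagy, had 4 peaks against a median of 3, at percentile 63.8. The start peak (chr10:131981390-131982518) had 49.4 tags and 4.13-fold. A higher one of 64.3 tags and 5.41-fold lay 1.9 kb upstream at chr10:131983784-131984208. Inside the gene were a peak of 32.6 tags and one of 22.3 tags, the latter at an end of PPP2R2D, a gene for a phosphatase regulatory subunit.

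Set side by side, the highest end peaks of the 10 members had a median of 60.3 tags (29.1 to 98.8), and 8 of 10 lay above 45.7 tags, the median of the 14595 genes that had such a peak. Median width differed little, 1123.5 bp compared with 1058 bp. The median local background was 12.9 tags in members and 7.88 in all, with 7 of 10 members above the latter. The median fold was 4.53 in members and 5.02 in all, and 3 of 10 members, EGLN3, VHL and ARNT, lay above it. Pileup and fold thus ordered the members differently: NDRG1, ADM and HIF1A led by pileup, EGLN3, VHL and ARNT by fold.

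**Figure D3:**
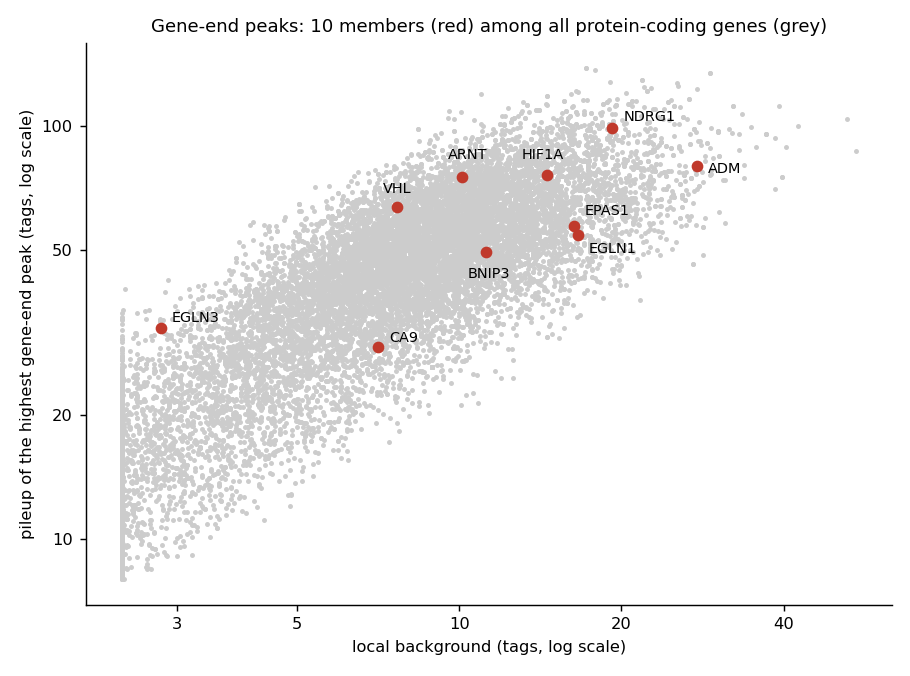
Pileup of the highest gene-end peak against the local background, both in tags on log scales, for the 10 members (red) and the 14595 protein-coding genes that have one (grey; 1 point a gene). ADM lies far to the right at 27.6 tags of background, EGLN3 far to the left at 2.80, and CA9 has the lowest pileup of the 10.

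Promoter sequences were searched for the core of the hypoxia response element, ACGTG or GCGTG on either strand, in the RefSeq window of 250 bases before to 50 bases after each start (GRCh38.p14). A core was found in 6 of the 8 members with an entry, and in 61.9% of protein-coding genes with an entry. It was found in 70.8% of genes with a peak over a start and in 42.3% of those without; the median share of G and C was 66.0% in windows with a peak over the start and 53.0% in those without. ACGTG alone was found in 3 of 8 members, EGLN1, CA9 and BNIP3, and in 28.5% of the genes. The members' share was thus near that of promoters with a peak, and a match is a description of letters, not evidence of binding.

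The 250 bases before the start are shown for EPAS1, because of its many peaks, and for the members with ACGTG; ADM is added for its unusual background. All read 5′ to 3′ on the gene's strand, with every core match in capitals; overlapping matches are joined, as in BNIP3, where one joined run reads CACGTG and holds ACGTG on each strand. Each of these windows lay entirely within the start peak.
EPAS1 (chr2:46297157-46297406, plus strand): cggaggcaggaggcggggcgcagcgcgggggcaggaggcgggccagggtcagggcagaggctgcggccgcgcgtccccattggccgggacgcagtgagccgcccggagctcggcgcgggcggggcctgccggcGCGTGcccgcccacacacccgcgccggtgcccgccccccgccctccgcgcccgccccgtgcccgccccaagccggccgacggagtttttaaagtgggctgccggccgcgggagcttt
EGLN1 (chr1:231422288-231422537, minus strand): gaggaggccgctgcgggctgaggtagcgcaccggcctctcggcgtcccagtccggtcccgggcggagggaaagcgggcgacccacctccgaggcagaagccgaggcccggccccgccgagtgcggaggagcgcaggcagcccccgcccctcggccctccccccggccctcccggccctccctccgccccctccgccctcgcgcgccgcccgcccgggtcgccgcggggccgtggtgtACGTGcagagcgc
CA9 (chr9:35673678-35673927, plus strand): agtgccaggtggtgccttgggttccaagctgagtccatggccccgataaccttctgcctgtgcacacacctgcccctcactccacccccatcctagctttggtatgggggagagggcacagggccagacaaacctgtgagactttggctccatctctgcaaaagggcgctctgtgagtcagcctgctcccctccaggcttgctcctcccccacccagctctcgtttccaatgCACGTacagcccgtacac
ADM (chr11:10304823-10305072, plus strand): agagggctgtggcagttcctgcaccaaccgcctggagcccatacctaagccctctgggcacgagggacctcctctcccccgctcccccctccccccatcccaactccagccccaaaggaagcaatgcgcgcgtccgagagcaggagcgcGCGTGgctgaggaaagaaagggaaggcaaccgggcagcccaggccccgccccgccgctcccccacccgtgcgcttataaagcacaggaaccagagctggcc
BNIP3 (chr10:131981924-131982173, minus strand): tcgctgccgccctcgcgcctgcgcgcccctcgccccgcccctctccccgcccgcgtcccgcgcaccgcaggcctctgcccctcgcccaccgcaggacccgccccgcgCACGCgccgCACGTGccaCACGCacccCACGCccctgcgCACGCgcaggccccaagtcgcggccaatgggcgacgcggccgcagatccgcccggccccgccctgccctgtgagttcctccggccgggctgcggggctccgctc

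BNIP3 held 5 separate core runs, beginning 143, 134, 125, 116 and 104 bases before the start, while each of the other members with a core held 1. The mean over all genes, taking the window with the most per gene, was 1.11. In EGLN1 the core began 13 bases before the start and in CA9, on the opposite strand, 18 bases before it. In ADM it began 101 bases before the start, in EPAS1 117 and in HIF1A 204. ARNT and EGLN3 held none in this window. G and C made up 80.7% of the BNIP3 window, 80.0% in EPAS1 and EGLN1, 65.0% in ADM and EGLN3, and 62.0% in CA9, the lowest among the windows of members with a peak over the start; the CA9 window held 7 CG pairs, compared with 48 in BNIP3.

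Wider lists placed the members in the pathway. All 12 of 12 other genes of HIF sensing and its cofactors had an end peak (72.8% of all protein-coding genes), with a median of 55.1 tags. More peaks than the median of similar genes were found for 9 of 12 (42.6% of all) and a higher pileup for 8 of 12 (49.8% of all). The median fold of their highest end peaks was 4.69, below the 5.02 of all genes with one. The highest end peaks were at ELOC (92.1 tags), which encodes elongin C of the VHL complex, and at P4HTM (69.3), a transmembrane prolyl hydroxylase gene. The lowest were at ARNT2 (18.3), the paralogue of ARNT known from neurons, and at ELOB (31.3), which encodes elongin B.

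Of 30 classical hypoxia-induced genes, 27 had an end peak (72.8% of all protein-coding genes), with a median of 65.5 tags. The count of peaks exceeded the median of similar genes for 20 of 30 (42.6% of all), and the highest pileup did for 25 of 30 (49.8% of all). By fold the list was not high: its highest end peaks had a median of 3.99, compared with 5.02 over all genes with one. ALDOA, a glycolytic aldolase gene, reached 99.8 tags and BHLHE40, a transcriptional repressor gene, 96.8. AK4, an adenylate kinase gene, had 20.9 tags and HK2, a hexokinase gene, 30.9. No end peak was called for KDM3A, a histone demethylase gene, for EPO, the erythropoietin gene, or for CXCR4, a chemokine receptor gene, which had none in the gene or its flanks either. The members' median of 60.3 tags lay between those of the 2 lists.

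**Figure D4:**
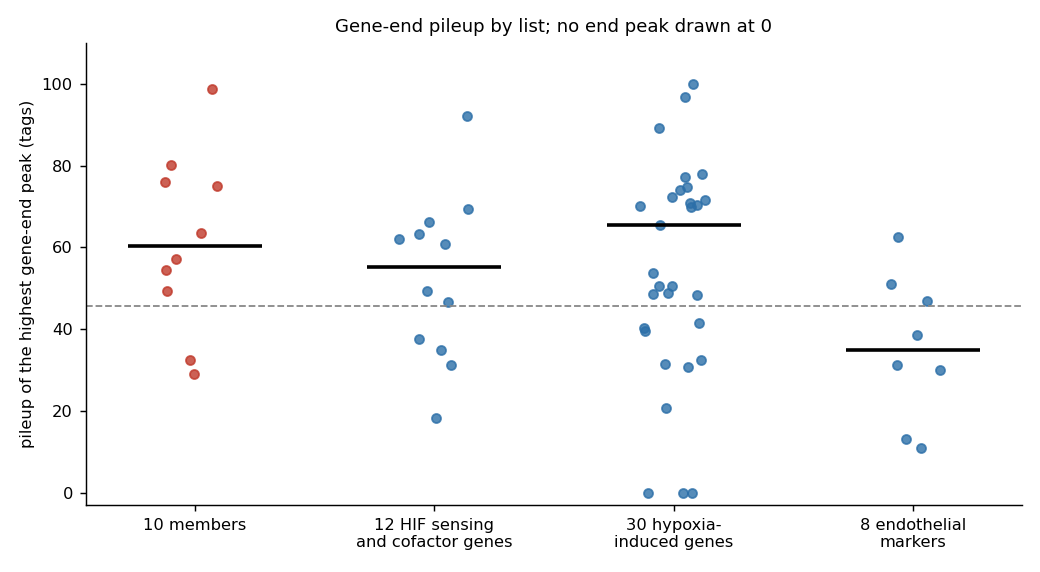
Pileup in tags of the highest gene-end peak for the members (red) and 3 other lists (blue), 1 point a gene; black lines are medians of genes with an end peak, genes without one are drawn at 0, and the dashed line is the median of all protein-coding genes that have one, 45.7 tags. The members run from 29.1 to 98.8 tags, and the endothelial markers have a median of 35.0.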

How the data were processed

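The deposited peak list came from 1 ATAC library. Per the file headers, the authors called broad peaks with MACS 2.2.7.1 without a control, shifting tags by -100 bp and extending them to 200 bp, at q of 0.05 and 0.1, in single-end mode, and with a genome size of 1870000000 bp, the mouse preset, which sets a background floor of 2.37 tags. The header counts 31532245 tags, of which 22188172 remained with 1 kept per position. The deposited columns used are the pileup signal, the fold ratio, the −log10 q-value and the peak width. Per the submitters' processing notes, GRCh38 and mm10 were among the builds, without roles; unshifted peaks lay within 1 kb of a start for 74.0% of genes with a RefSeq start, compared with at most 18.4% after offsets of 3 to 50 kb, so GRCh38.p14 tables were used.

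Local background was computed as (pileup + 1)/fold − 1. An overlap of 1 bp sufficed. Exons and introns were not separated. Counting was tested on simulated data (Python 3.11.15, pandas 2.3.3). All members are named; of each wider list, the 2 highest and 2 lowest end pileups and genes without an end peak. The members, lists and rules were chosen with earlier results of these data known. RNA tables list Ensembl transcripts that no table used here pairs with genes, so members' transcripts are not analysed here. Alternatives covered peak filters, windows, flanks, overlap, the similar genes and the motif.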

Additional observations from a re-analysis of the deposited data

How the results depend on the processing

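The 6 counts of members planned, and the count at percentile 90, were recomputed under the alternatives, which gave 47 values, of which 42 lay within 1.5-fold of the reported count. The 5 others were: with peaks of at least 4-fold, 4 members had more peaks than similar genes, 2 stood at or above percentile 90 and 4 had a peak at the start; among similar genes with an end peak, 2 stood at or above percentile 90 (EPAS1 and CA9, without HIF1A and ADM); with ACGTG alone, 3 had a core in the promoter. Windows of 500 and 2500 bp and an overlap of 200 bp, run for the counts of members with an end or start peak, and 100 or 500 similar genes, run for the counts against similar genes, left those within 1.5-fold. The end and start counts already held every member they could, so the wider window could only leave them unchanged. Each member had a peak of at least 610 bp over a gene end, and over the start base where one was listed. The narrower window and the overlap thus could not lower these counts either, and the unchanged values say nothing of stability. The limit of 1.5-fold was loose, as a count of 7 or more of 10 cannot rise by that much. Within it, the 4-fold filter lowered the members with an end peak from 10 to 7. It lowered those with more peak-covered bases than similar genes from 8 to 6. The limit compares the size of a count and not which members it holds. No share of all genes is given for the counts under any peak filter, among similar genes with an end peak, or without peaks at other genes' ends. The number of peaks of single members moved beyond 1.5-fold in 22 of 50 cases, under each peak filter and each flank. The alternatives on similar genes with an end peak, on peaks at other genes' ends, on the start base and on percentile 90 were added after seeing the data. Replicate numbers could not be used. No paired analysis was possible because the assays share 1 replicate number and no groups are compared. With 1 library, the error of a pileup is unknown, and a missing peak only means a signal below what was called at this depth.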
